A study of Mus musculus with 10 samples.

Results

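The combined treatment of mouse osteoblasts with tumour necrosis factor (TNFa) and bone morphogenetic protein 4 (BMP4) was compared with no treatment, window by window, in ATAC-seq data. ATAC-seq uses a transposase that inserts adapters where chromatin is open, so the number of tags in a window measures its accessibility. Windows of the list deposited for TNFa+BMP4 were paired with windows of the list deposited for untreated cells (none) where the 2 starts lay on the same chromosome at most 62 bp apart, each being the nearest to the other. This gave 18081 paired windows, 76.147% of the 23745 windows in the TNFa+BMP4 list and 68.933% of the 26230 in the none list. The 4 lists of the series hold 97788 windows together. All windows are 125 bp long, so levels of different windows are per the same length.

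The cells were MC3T3-E1, an osteoblast precursor line derived from mouse calvaria. All groups shared reduced serum before treatment. The TNFa+BMP4 cells received TNFa at 10 ng/ml and BMP4 at 10 ng/ml and the none cells received neither, with 2 libraries per group. Single-factor groups, of 2 libraries each and used only beside the combination, received TNFa at 10 ng/ml or BMP4 at 10 ng/ml. The sample labels give 3 h for every treatment and the treatment protocol 30 min of TNFa ahead of 3 h of BMP4, so how long TNFa was present is not certain. A single batch number covers all libraries, and separate cultures are not stated. The p-values therefore rest on the spread among libraries that may be only technical repeats. Total tags were 21757662.0 and 18842390.5 in the TNFa+BMP4 libraries and 30051723.0 and 29118517.5 in the none libraries, as the file headers give them. The paired windows held 4.51% ± 0.786 of the tags of TNFa+BMP4 libraries and 4.82% ± 0.766 of those of none libraries (SD, n = 2 each), against 0.3126% and 0.2825% in the 2 libraries of sonicated DNA that the authors used as background.

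TNFa binds its receptors on the cell surface and, through TRAF adaptors and kinases, frees NF-kB dimers such as p65 with p50 to enter the nucleus, where they bind promoters and enhancers of cytokine, chemokine and feedback genes. BMP4 binds paired serine-threonine kinase receptors that phosphorylate SMAD1, SMAD5 and SMAD8, which join SMAD4 and bind regulatory DNA of genes such as the Id genes. In osteoblasts BMP signalling favours bone formation, and TNFa is known to hold it back and to promote inflammation and cell death.

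For 3 of the genes with a tested promoter window, the 250 bases before the RefSeq start are shown (build GRCm38.p6, plus strand, 5′ to 3′). These serve as examples of promoter DNA that a window covered in part. They are those of Il6 (chr5:30012864-30013113), Nfkb2 (chr19:46305445-46305694) and Id3 (chr4:136143572-136143821). Capitals mark an NF-kB motif (GGGA, any base, TT, any base, CC), an AP-1 motif (TGANTCA) and a CRE motif (TGACGT) in Il6, a looser NF-kB motif (GGG, any 5 bases, CC), which every match of the stricter motif also meets, in Nfkb2, and a GC box (GGGCGG) in Id3, each searched on both strands. Adjacent or overlapping matches run together.
Il6: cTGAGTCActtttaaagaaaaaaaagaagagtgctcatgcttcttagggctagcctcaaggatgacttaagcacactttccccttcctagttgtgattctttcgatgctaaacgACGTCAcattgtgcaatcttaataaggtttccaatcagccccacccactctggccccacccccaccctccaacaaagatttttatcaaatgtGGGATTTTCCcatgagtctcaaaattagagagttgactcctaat
Nfkb2: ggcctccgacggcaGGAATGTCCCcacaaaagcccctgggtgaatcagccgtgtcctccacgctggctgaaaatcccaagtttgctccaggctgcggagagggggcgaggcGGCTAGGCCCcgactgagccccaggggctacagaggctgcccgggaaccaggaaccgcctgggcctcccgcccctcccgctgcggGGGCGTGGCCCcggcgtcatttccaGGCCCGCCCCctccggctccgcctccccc
Id3: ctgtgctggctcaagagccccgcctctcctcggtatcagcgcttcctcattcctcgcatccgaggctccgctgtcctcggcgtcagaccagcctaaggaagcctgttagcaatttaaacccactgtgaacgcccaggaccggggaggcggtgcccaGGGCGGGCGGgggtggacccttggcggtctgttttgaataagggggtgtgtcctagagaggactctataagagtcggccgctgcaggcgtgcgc
Counting the base before the start as -1, the Il6 promoter had its NF-kB motif at -44 to -35, its AP-1 motif at -249 to -243 and its CRE motif at -136 to -131. The window measured there covered bases -228 to -104, so it held the CRE motif and neither of the others. The Nfkb2 window covered -79 to 45 and held the matches to the looser motif at -54 to -45, -53 to -44 and -29 to -20. The Id3 window covered -175 to -51 and held both GC boxes. A search of the 250 bases of Id3 for the GC-rich SMAD element (GGCGCC) found no match. The stricter NF-kB motif occurred in 0.980% of the 32851 promoters of the RefSeq table, the looser one in 45.8%, the AP-1 motif in 6.75%, the CRE motif in 6.47% and the GC box in 32.7%. A match is a description of letters and not a bound site.

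Osteoblast markers were checked first. Of 14 markers, 13 had at least 1 paired window, and Alpl, the alkaline phosphatase of mineralising osteoblasts, had none. The windows of osteoblast markers summed to 2988 and 3033 normalised tags in the TNFa+BMP4 libraries and to 3071 and 3795 in the none libraries. Normalised tags are tags scaled to a common library size by a trimmed mean of log ratios (TMM). Windows were present for 5 of 8 chondrocyte markers, 2 of 6 adipocyte markers, 2 of 10 haematopoietic markers and 3 of 9 endothelial or muscle markers. Spi1, Ptprc and Cd68, which define white blood cells and macrophages, had no window in the paired set. The endothelial and muscle windows summed to 914 and 747 normalised tags with TNFa+BMP4 and to 562 and 709 without treatment. Their part in the results below was not tested.

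The 4 libraries did not fall into 2 groups. Across the 17789 windows with enough tags to be tested, log2 levels of the TNFa+BMP4 replicates correlated at r = 0.745 and those of the none replicates at r = 0.617, whereas TNFa+BMP4 replicate 2 and none replicate 1 correlated at r = 0.900. None replicate 2 stood farthest apart, with r = 0.432 to TNFa+BMP4 replicate 1 and r = 0.597 to TNFa+BMP4 replicate 2. On the first principal component, with 64.3% of the variance, the TNFa+BMP4 libraries were at -76.6 and -18.8 and the none libraries at -13.9 and 109. Points of these correlations are windows that share their library and its depth, so they describe the libraries only. Because of this split, the fold changes of windows described with their tags are in most cases also given without none replicate 2.

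Windows near cytokine and chemokine genes (Lif, Ccl2, Cxcl1, Il6), NF-kB feedback genes (Nfkbia, Nfkbiz) and the BMP targets Id1 and Id3 had more tags in both TNFa+BMP4 libraries than in both none libraries, with log2 fold changes from 0.76 to 2.38 at the windows given below, while other windows of some of these genes overlapped or lay the other way. Windows near Vdr, Rarb and Osr1 had fewer. The groups did not overlap at these windows, but none of the differences held after adjustment over all windows: no window passed an adjusted p of 0.05 in limma (0 of 17789, 0%). The lowest adjusted p was 0.792. At an unadjusted p under 0.05, 630 windows (3.54%) were higher and 465 (2.61%) lower with TNFa+BMP4, and with voom weights 634 were higher and 449 lower, with 0 past the adjusted threshold. Scaling by total tags turned this split to 429 higher and 504 lower and gave a median log2 fold change over all windows of -0.13, against -0.02 with TMM. The log2 fold change, TNFa+BMP4 over none on log2 of normalised tags plus 2, ran from -2.73 to 3.62, with the 5th percentile at -1.22, the 95th at 1.32 and a median SE of 0.69. Both TNFa+BMP4 libraries lay above both none libraries in 2700 windows (15.2%) and below both in 3018 (17.0%).

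The counts depended on single libraries. Without none replicate 1, 462 windows passed the adjusted threshold, 332 higher and 130 lower, and without none replicate 2 there were 0, with 160 higher and 109 lower at an unadjusted p under 0.05. Without TNFa+BMP4 replicate 1 the unadjusted counts were 65 and 92, and without TNFa+BMP4 replicate 2 they were 817 and 534, with 0 past the adjusted threshold in both. Of the 630 windows higher at an unadjusted p under 0.05, none replicate 1 exceeded none replicate 2 in 93.7% and TNFa+BMP4 replicate 1 exceeded replicate 2 in 92.5%. The median log2 difference between TNFa+BMP4 replicate 2 and none replicate 1 was 0.46 in these windows and -0.83 in the 465 lower ones, against 0.00 over all windows.

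**Figure D1:**
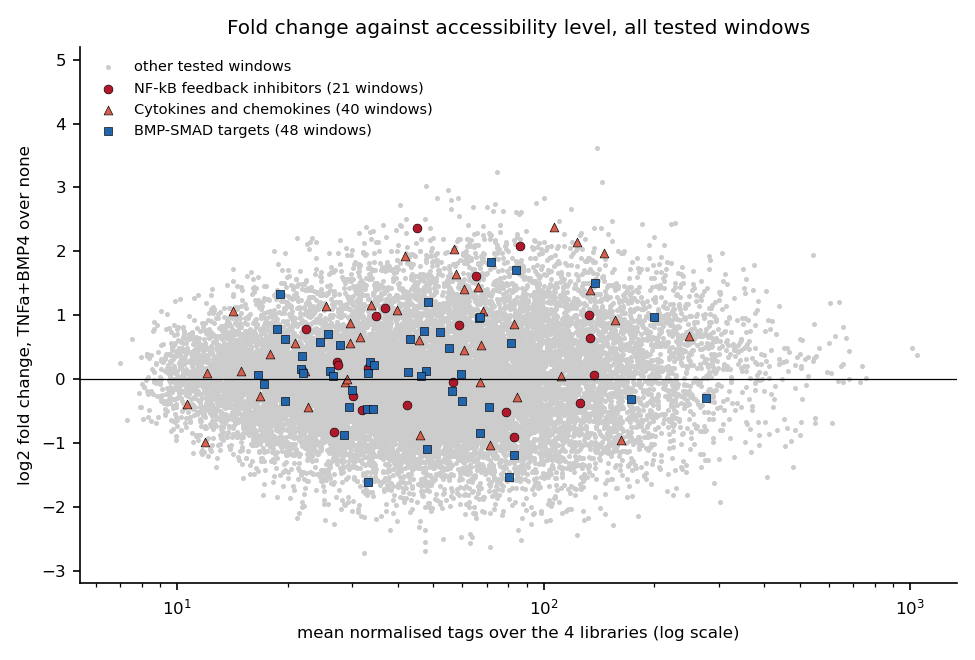
Log2 fold change of TNFa+BMP4 over none against the mean normalised tags of the 4 libraries (log axis), for the 17789 tested windows, with the windows of 3 gene lists marked. The marked windows lie within the cloud of all windows, and those above a fold change of 2 on the log2 scale belong to the cytokine and NF-kB feedback lists.

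Because no window passed, the windows below are described by their values. They are part of the 199 windows named by rank, by gene list or by anchor gene. The choice among these was made with their values, and their change without single libraries, known. Those described are the steadier ones and do not stand for the whole set. The adjusted p in limma was at least 0.792 for each window described. A window is named after the nearest start site, and an intronic window can lie in an intron of another transcript than the gene named. Tags are given for replicate 1 and then replicate 2 of each group.

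The window with the smallest p lay at chr12:84846956-84847080 (mm10), an intronic window with the transcript D030025P21Rik as its nearest start 28784 bp away. It had 296 and 213 normalised tags in the TNFa+BMP4 libraries and 41.9 and 7.66 in the none libraries. Both treated libraries were several times above both untreated ones, and the log2 fold change was 3.62 ± 0.77 (SE), or 2.52 without none replicate 2. A neighbouring window at -29113 bp had a fold change of 2.83. The window at -28784 bp, and no other, passed when windows were required to have a mean of at least 30 tags (adjusted p = 0.0456 in limma).

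Others of the 10 higher windows with the smallest p were near known genes. Upstream of Tlr2, the receptor for bacterial lipoproteins, the window at chr3:83844944-83845068 (3398 bp before the start) had 170 and 88.3 normalised tags with TNFa+BMP4 and 38.5 and 2.3 without treatment. Its fold change of 3.24 (log2) was 1.62 without none replicate 2, which was nearly empty there. A window in an intron of Mapt, which encodes the microtubule protein tau, at chr11:104303674-104303798, had 184 and 150 tags in the treated libraries and 26.2 and 19.9 in the untreated ones. Here the 2 none libraries were alike, and the fold change of 2.76 ± 0.71 was 2.57 without none replicate 2. The promoter window of Tmem126a, a mitochondrial membrane protein gene, had 142 and 33.7 tags against 11.4 and 3.83 in the none libraries, and a pair of intergenic windows 73449 and 73155 bp before Herc1, a ubiquitin ligase gene, had fold changes of 2.96 and 2.81, or 2.03 and 1.73 without none replicate 2. Windows near Camk1g, 1700028E10Rik and 7420700N18Rik had fold changes of 2.73, 3.09 and 2.83.

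Among the 10 lower windows with the smallest p were several near transcription factor and receptor genes. In the first intron of Vdr, the vitamin D receptor gene, the window at chr15:97897617-97897741 had 15.9 and 16.3 normalised tags with TNFa+BMP4 and 76 and 129 without treatment. The groups did not overlap, and the fold change was -2.48 ± 0.68 (log2), or -2.09 without none replicate 2. An intronic window of Rarb, a retinoic acid receptor gene, had 4.35 and 17.4 tags in treated libraries and 37.6 and 130 in untreated ones, with a fold change of -2.70. A window 283699 bp from Osr1, a mesenchymal transcription factor gene, had 7.25 and 15.1 tags with TNFa+BMP4 and 49.8 and 79.7 without. The fold changes of those near Pappa2, a protease that cleaves insulin-like growth factor binding proteins, and P2ry2, a nucleotide receptor gene, were -2.56 and -2.52. The remaining ones, near 4930435F18Rik, 2810442N19Rik, Gm5084, Tspan8 and March6, had fold changes from -2.73 to -2.32, or from -2.34 to -1.75 without none replicate 2.

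**Figure D2:**
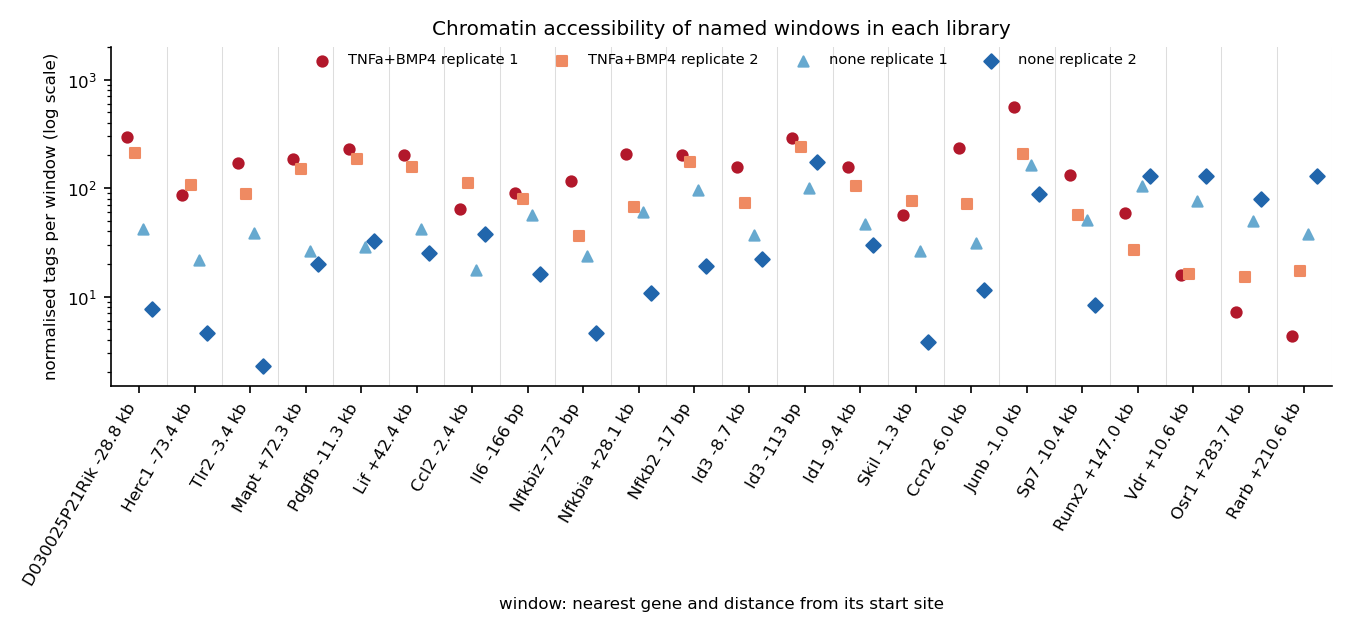
Normalised tags (log axis) in each of the 4 libraries for 22 named windows, each labelled by its nearest gene and distance from the start site. Red and orange symbols are TNFa+BMP4 replicates 1 and 2, light and dark blue symbols none replicates 1 and 2. From D030025P21Rik to Sp7 both TNFa+BMP4 symbols lie above both none symbols, from Runx2 to Rarb both lie below, and none replicate 2 is the lowest library in most of the higher windows.

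The NF-kB pathway was described first by its feedback inhibitors. Of 13 such genes, 10 had tested windows, 21 in all. In 10 of the 21 windows (47.6%) both TNFa+BMP4 libraries were above both none libraries and in 1 both were below, beside 15.2% and 17.0% of all windows. The median log2 fold change was 0.22, against -0.02 over all windows. At an unadjusted p under 0.05 in limma 3 of the 21 windows were higher and 0 lower, beside 3.54% and 2.61% of all windows. Without none replicate 2 the median was 0.57 and without none replicate 1 it was -0.05. With none replicate 2 left out, both treated libraries were above none replicate 1 in 15 of the 21 (71.4%), beside 28.2% of all windows.

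Nfkbia encodes IkBa, the inhibitor that holds NF-kB in the cytoplasm and is itself an NF-kB target. Its window at chr12:55464500-55464624, 28085 bp downstream of the start, had 206 and 67.4 normalised tags with TNFa+BMP4 and 60.3 and 10.7 without treatment. TNFa+BMP4 replicate 2 was barely above none replicate 1, and the fold change of 2.09 was 0.94 without none replicate 2. A neighbouring window at 27682 bp had 112 and 82.5 tags against 48.1 and 18.4 in none libraries, with a fold change of 1.62, or 0.97 without none replicate 2. At 26172 bp the values were 53.6 and 40.7 with TNFa+BMP4 and 22.7 and 22.2 without, a fold change of 0.99 that was 0.97 without none replicate 2. The promoter window of Nfkbiz, which encodes the nuclear NF-kB cofactor IkBz, had 116 and 36 tags in the treated libraries and 23.6 and 4.6 in the untreated ones (fold change 2.37, or 1.38 without none replicate 2). Tnfaip3, which encodes the ubiquitin-editing inhibitor A20, had 1 tested window, with 29 and 30.2 tags in the treated libraries and 22.7 and 27.6 in the untreated ones.

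The genes for NF-kB subunits and for the TNF receptor machinery had 38 tested windows, of which 4 (10.5%) lay above and 9 (23.7%) below in both libraries, beside 15.2% and 17.0% of all windows (median log2 fold change -0.10). The Nfkb2 promoter window shown above, at chr19:46305616-46305740, had 203 and 175 normalised tags with TNFa+BMP4 and 97 and 19.2 without treatment. Nfkb2 encodes p100, the precursor of p52. The 2 treated libraries were close to each other and above both untreated ones, with a fold change of 2.06 ± 0.76, or 0.94 without none replicate 2. Another Nfkb2 window, 64 bp from the start of another transcript, had 209 and 129 tags against 71.7 and 36 in none libraries. The remaining Nfkb2 window, a promoter window at -162 bp, overlapped between groups and had a fold change of -0.34. It had 168 and 180 tags in treated libraries and 161 and 305 in untreated ones. Nfkb1, the gene of p105 and p50, had 3 windows with fold changes between -1.36 and -0.11, the lowest of which was -0.58 without none replicate 2, and windows of the adaptor genes Traf5 and Tab2 had -1.61 and -1.44. The Traf5 promoter lay the other way, with 206 and 50 normalised tags in treated libraries and 79.5 and 8.43 in untreated ones. The groups overlapped, and its fold change of 1.83 turned to -0.65 without TNFa+BMP4 replicate 1 and none replicate 2.

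Cytokine and chemokine genes had the highest median of the 23 lists. Of 30 genes, 17 had tested windows, 40 in all, and 30 of these had a fold change above 0, beside 48.8% of all windows. Both treated libraries lay above both untreated ones in 19 (47.5%) and below in 3 (7.5%), beside 15.2% and 17.0% of all windows. The median log2 fold change was 0.59. At an unadjusted p under 0.05 in limma 6 of the 40 windows were higher and 0 lower, beside 3.54% and 2.61% of all windows. Without none replicate 2 the median was 0.54, and for TNFa+BMP4 replicate 2 minus none replicate 1 alone it was 0.47.

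A pair of windows 42408 and 41960 bp downstream of Lif, the gene of a cytokine of the interleukin 6 family, did not overlap between groups. At chr11:4309142-4309266 there were 203 and 157 normalised tags with TNFa+BMP4 and 41.9 and 25.3 without treatment, and at chr11:4308694-4308818 there were 294 and 175 against 66.4 and 47.5 in none libraries. Replicate 1 was above replicate 2 in both groups at both windows. The fold changes of 2.38 ± 0.71 and 1.98 ± 0.69 were 2.03 and 1.74 without none replicate 2. Another window, 35726 bp downstream of Lif, had a fold change of -1.03, so windows of 1 gene did not all go one way.

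Ccl2 encodes a chemokine that attracts monocytes. Its window at chr11:82033068-82033192, 2447 bp before the start, had 63.8 and 112 normalised tags with TNFa+BMP4 and 17.5 and 37.5 without treatment, a fold change of 1.64 that was 2.14 without none replicate 2. A pair of windows 23955 and 23584 bp before the start had fold changes of 2.14 and 1.40, or 0.92 and 0.80 without that library. The window over the Ccl2 start itself had 55.1 and 91.8 tags with TNFa+BMP4 and 55.9 and 135 without treatment, so the groups overlapped. Before Cxcl1, which encodes a chemokine for neutrophils, the window at chr5:90876633-90876757 had 104 and 32.5 tags in treated libraries and 22.7 and 8.43 in untreated ones (1.92, or 1.29 without none replicate 2). The Il6 promoter window shown above had 89.9 and 80.2 tags with TNFa+BMP4 and 56.8 and 16.1 without treatment, with a fold change of 1.41 ± 0.73 that was 0.56 without none replicate 2. Downstream of Cx3cl1, the gene of a membrane-anchored chemokine, the values were 95.6 and 87.2 in treated libraries and 29.7 and 14.6 in untreated ones, a fold change of 2.03.

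Adhesion and innate immune genes had 10 tested windows from 3 genes, with a median of -0.07. Of these, 2 (20%) were above and 3 (30%) below in both libraries, beside 15.2% and 17.0% of all windows. The highest were the window of Tlr2 given above and its neighbour at -3734 bp, with a fold change of 2.69, or 1.66 without none replicate 2. The 3 below were all windows of Cd44, between -1.45 and -0.76. In the lowest of them TNFa+BMP4 replicate 2 was close to none replicate 1. Vcam1, which encodes a cell adhesion molecule, had 2 windows in which the groups overlapped, with 8.14 to 23.2 normalised tags in treated libraries and 7.87 to 27.6 in untreated ones. Icam1, another adhesion molecule gene, had no paired window. The TNFa+BMP4 list held 3 windows of Icam1 without a partner and the none list held 0, with 38 to 67 tags in replicate 1 and 23 to 41 in replicate 2. For Nfkbia these numbers were 7 and 1, but these include promoter windows at -83 bp in the TNFa+BMP4 list and 28 bp in the none list, which are farther apart than the limit for pairing. Over all genes 5664 windows of the TNFa+BMP4 list (23.9%) and 8149 of the none list (31.1%) had no partner. The numbers were 19 of 40 and 7 of 28 windows for NF-kB feedback inhibitors, and 25 of 73 and 10 of 58 for BMP-SMAD targets. A window without a partner has no value in the other list, so these are counts of listed windows and not fold changes.

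**Figure D3:**
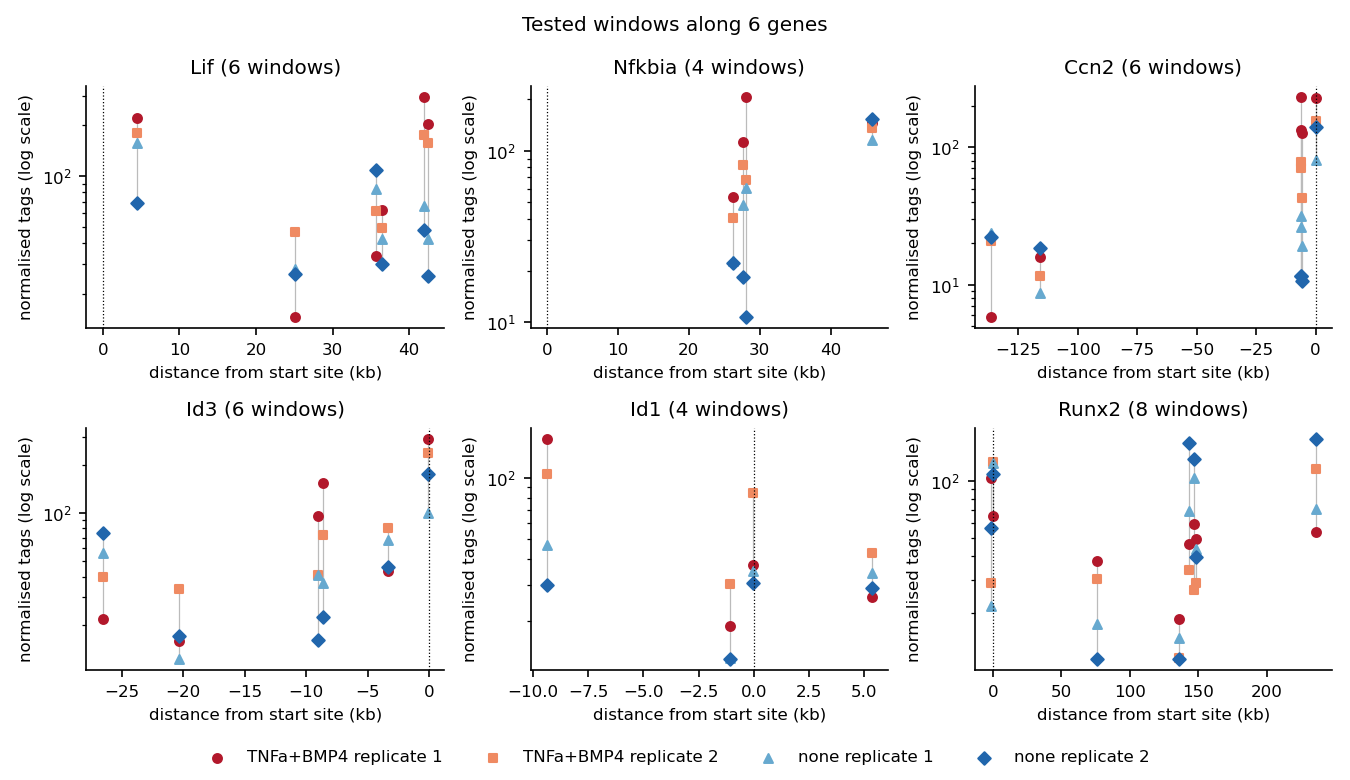
Normalised tags (log axis) of the tested windows of 6 genes by distance from the start site (dotted line), with 1 symbol per library, red and orange for TNFa+BMP4 and light and dark blue for none. Both TNFa+BMP4 symbols lie above both none symbols at the Lif windows 41960 and 42408 bp downstream, at the Nfkbia windows from 26172 to 28085 bp, at the Ccn2 windows 5556 to 6336 bp before the start and at the distal Id1 and Id3 windows named in the text, while other windows of these genes overlap or lie the other way.

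BMP-SMAD target genes had 48 tested windows from 14 of 21 genes. In 13 (27.1%) both TNFa+BMP4 libraries were above both none libraries and in 7 (14.6%) below, beside 15.2% and 17.0% overall. The median log2 fold change was 0.12, or 0.00 with scaling by total tags, and 0.30 without none replicate 2, when both treated libraries were above none replicate 1 in 25 (52.1%) of the windows, beside 28.2% of all windows.

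The Id genes encode helix-loop-helix proteins that bind and block differentiation factors. Of their windows, that at chr4:136135110-136135234, 8650 bp before Id3, had 155 and 73.2 normalised tags with TNFa+BMP4 and 36.7 and 22.2 without treatment. The groups did not overlap, and the fold change was 1.83 ± 0.72, or 1.48 without none replicate 2. The Id3 promoter window shown above had 290 and 237 tags in treated libraries and 100 and 175 in untreated ones, a fold change of 0.97 that was 1.36 without none replicate 2. For Id1, the window 9376 bp before the start, at chr2:152726813-152726937, had 155 and 105 tags with TNFa+BMP4 and 47.2 and 29.9 without, a fold change of 1.71. The Id1 promoter had 37.7 and 84.8 against 35 and 30.6 in the none libraries. All 4 windows of Id1 had fold changes above 0, from 0.09 to 1.71, and 5 of the 6 of Id3, from -1.09 to 1.83, beside 48.8% of all windows. The Id3 window at -9068 bp overlapped between groups, with a fold change of 1.21 that was -0.01 without TNFa+BMP4 replicate 1 and none replicate 2. Id2 had 3 windows between -0.18 and 0.97 and Id4 had 3 between -1.19 and -0.07.

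Of the inhibitory SMAD genes, Smad6, whose protein competes for SMAD binding, had 7 windows between -1.53 and 0.53. Of these, 5 had a fold change above 0, beside 48.8% of all windows. Among the 7, 1 was above and 1 below in both libraries, beside 15.2% and 17.0% of all windows. Smad7, which blocks the receptor, had 5 windows between -0.47 and 0.58, 4 of them above 0. The lowest Smad6 value was -0.78 without none replicate 2. Among other targets, a window of Smurf1, a ubiquitin ligase that degrades SMAD1 and SMAD5, had 8.7 and 19.8 normalised tags with TNFa+BMP4 and 25.3 and 78.9 without treatment, and 1 near Rgs4, a regulator of G-protein signalling, had 21.7 and 34.9 against 11.4 and 8.43 in none libraries. Their fold changes were -1.62 and 1.33, or -0.83 and 1.13 without none replicate 2. Atoh8, a BMP-responsive helix-loop-helix gene, had 2 windows, at -0.43 and 0.70.

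Genes of BMP ligands, receptors and receptor SMADs had 17 windows and a median of -0.13. Of these, 0 were above and 1 (5.88%) below in both libraries, beside 15.2% and 17.0% of all windows. The 1 below was an intronic window assigned to Smad5, a receptor SMAD gene, with 14.5 and 22.1 normalised tags in treated libraries and 45.4 and 57.5 in untreated ones. Before Bmpr2, the type II BMP receptor gene, a window whose groups overlapped had a fold change of 1.03, or -0.11 without TNFa+BMP4 replicate 1. BMP antagonist genes had 20 windows, 6 (30%) above and 4 (20%) below, beside the same shares of all windows. Windows near Grem1, the gene of a secreted BMP-binding protein, and near Fstl1, the gene of a secreted BMP4-binding protein, had fold changes of 1.46 and 1.32, or 0.74 and 1.08 without none replicate 2. The lowest, an intronic window of Bmper, the gene of another secreted BMP-binding protein, had 11.6 and 31.4 normalised tags in treated libraries and 35 and 67.4 in untreated ones, a fold change of -1.25 that was -0.79 without none replicate 2. A window 95582 bp from Nog, the gene of the BMP antagonist noggin, had 18.8 and 17.4 tags with TNFa+BMP4 and 16.6 and 111 without treatment. Its fold change of -1.19 rested on none replicate 2 and was 0.11 without it.

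TGF-beta pathway genes had 56 windows, with a median of 0.16. Of these, 18 (32.1%) were above and 6 (10.7%) below in both libraries, beside 15.2% and 17.0% of all windows. Before Skil, the gene of the SMAD corepressor SnoN, the window at chr3:31093739-31093863 had 56.5 and 76.7 normalised tags with TNFa+BMP4 and 26.2 and 3.83 without treatment (2.40, or 1.26 without none replicate 2). A pair of intronic windows of Ltbp1, which encodes a protein that stores latent TGF-beta in the matrix, were among the more accessible ones, with 391 and 232, and 483 and 212, tags in treated libraries against 107 and 43.7, and 102 and 52.1, in untreated ones. Both had a fold change of 2.10. The lowest of this list were intronic windows assigned to Tgfbr2, the type II receptor gene, and Tgif1, a SMAD corepressor gene, with -1.65 and -1.57, or -0.92 and -1.10 without none replicate 2.

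Osteoblast transcription factor genes had 40 windows, with a median of 0.26. Of these, 9 (22.5%) were above and 5 (12.5%) below in both libraries, beside 15.2% and 17.0% of all windows. Sp7 encodes osterix, which is needed for osteoblast formation. Its windows at 10033 and 10381 bp before the start had 103 and 65.1, and 132 and 56.9, normalised tags with TNFa+BMP4 and 51.6 and 14.6, and 50.7 and 8.43, without treatment. TNFa+BMP4 replicate 2 was close to none replicate 1 in both, and the fold changes of 1.49 and 1.92 were 0.65 and 0.75 without none replicate 2. Runx2, the master regulator of bone, had 8 windows from -1.49 to 1.14. The lowest of them, an intronic window at chr17:44589137-44589261, had 59.4 and 26.7 tags in treated libraries and 104 and 130 in untreated ones (-1.33 without none replicate 2). A window near Prrx1, a limb mesenchyme homeobox gene, had a fold change of 1.23.

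Osteoblast matrix and membrane genes had 64 windows, with a median of -0.12. Of these, 11 (17.2%) were above and 15 (23.4%) below in both libraries, beside 15.2% and 17.0% of all windows. Col1a1, the gene of the main collagen chain of bone, had 3 windows between -1.04 and -0.21. At 2472 bp before its start there were 62.3 and 60.4 normalised tags with TNFa+BMP4 and 67.3 and 243 without treatment. The high value was that of none replicate 2 alone, and the fold change of -1.04 was -0.13 without it. The intronic window of Pth1r, the parathyroid hormone receptor gene, likewise had -1.70 with and -0.81 without that library. A window near Phospho1, a phosphatase of matrix vesicles, had 59.4 and 36 tags with TNFa+BMP4 and 110 and 147 without treatment (-1.42, or -1.21).

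**Figure D4:**
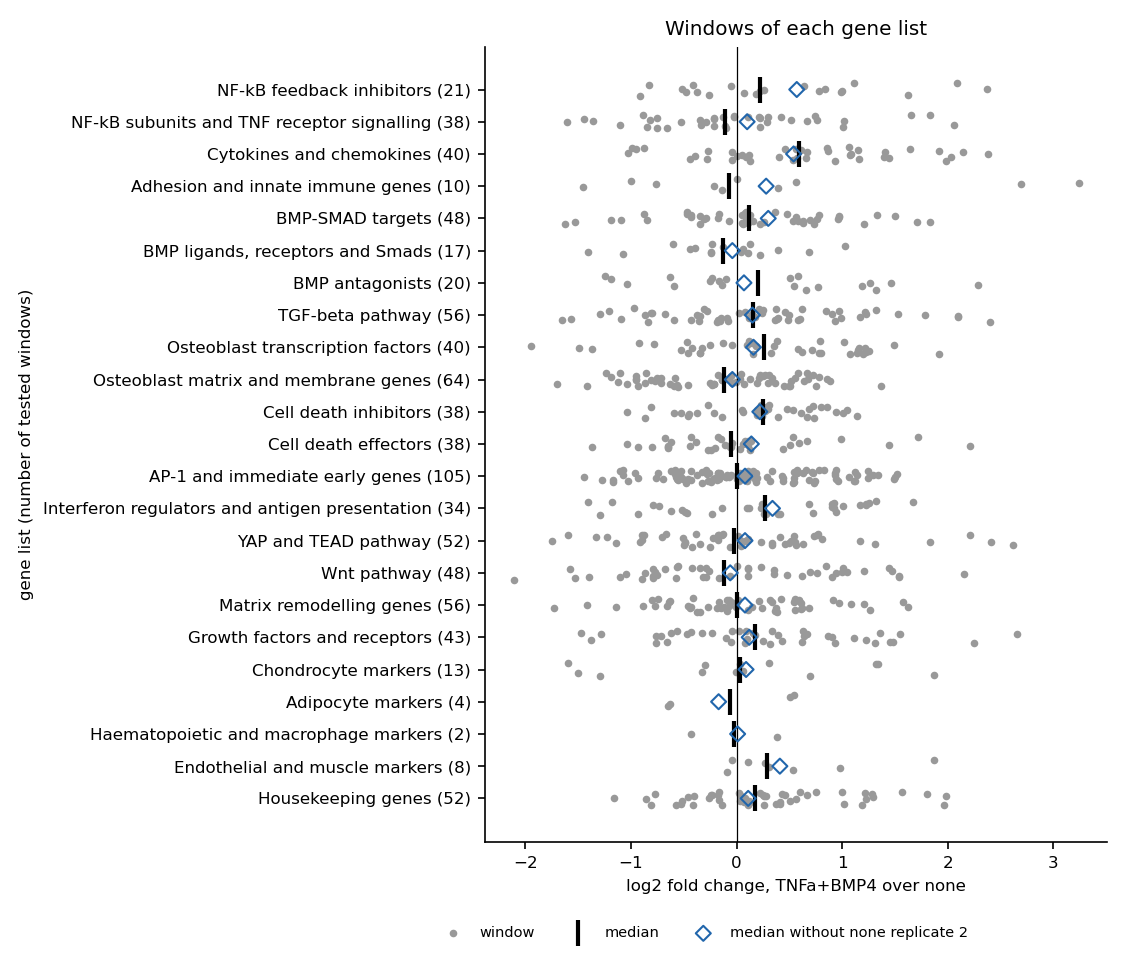
Log2 fold change (TNFa+BMP4 over none) of each tested window in 23 gene lists, given with their numbers of windows. Bars mark each list's median and open diamonds the median without none replicate 2. The cytokine list has the highest median, 0.59, and the other medians lie between -0.13 and 0.29, with windows on both sides of 0 in every list.

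The study asked about protection by BMP against inflammatory cell death. Cell death inhibitor genes had 38 windows, 27 with a fold change above 0, beside 48.8% of all windows, and a median of 0.25. Of the 38, 12 (31.6%) were above and 2 (5.26%) below in both libraries, beside 15.2% and 17.0% of all windows. No window of this list had an unadjusted p under 0.05 in limma, beside 3.54% higher and 2.61% lower over all windows. None passed the adjusted threshold. Without none replicate 2 the median was 0.22. Bcl2l1, which encodes Bcl-xL, had 4 windows from 0.19 to 0.72, Mcl1 had 5 from -0.81 to 0.30, and Cflar, which encodes the caspase-8 inhibitor c-FLIP, had 4 from -0.14 to 1.05. The Cflar window at 1.05, in a promoter, overlapped between groups and had -0.14 without TNFa+BMP4 replicate 1 and none replicate 2. Birc3, an inhibitor of apoptosis gene, had no paired window. An intronic window of Traf2, the adaptor of TNF receptor 1, had 133 and 80.2 normalised tags with TNFa+BMP4 and 61.2 and 41.4 without treatment. Cell death effector genes had 38 windows, 4 (10.5%) above and 5 (13.2%) below, beside 15.2% and 17.0% of all windows, and a median of -0.06. An intron of Bbc3, the gene of the p53 target PUMA, had 380 and 278 tags with TNFa+BMP4 and 220 and 63.6 without treatment, a fold change of 1.44 that was 0.56 without none replicate 2. Another Bbc3 window in the same intron had 1.72, the groups overlapped, and it had -0.19 without TNFa+BMP4 replicate 1 and none replicate 2. A window 170284 bp before Dapk1, a death-associated kinase gene, had 2.21, or 1.79 without none replicate 2. It had 30.4 and 48.8 tags with TNFa+BMP4 and 9.61 and 4.6 without treatment. The other Dapk1 windows overlapped between groups, with fold changes from -0.68 to 0.67, most of them below 0. A window in the first intron of Bid, which links caspase-8 to mitochondria, had -1.37, or -0.83 without none replicate 2.

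AP-1 and immediate early genes had the most windows, 105, with a median of 0.00. Of these, 21 (20%) were above and 13 (12.4%) below in both libraries, beside 15.2% and 17.0% of all windows. Before Junb, which encodes an AP-1 subunit, the window at chr8:84979688-84979812 had 564 and 208 normalised tags with TNFa+BMP4 and 163 and 88.9 without treatment. The groups did not overlap, with a fold change of 1.49 ± 0.65, or 1.06 without none replicate 2, and a neighbouring window had 1.12. Fosl2 had 3 windows between 0.10 and 0.44. A window near Fosb had 88.4 and 13.9 tags against 13.1 and 9.96 in none libraries, so the high value was that of TNFa+BMP4 replicate 1, without which the fold change was 0.25. Distal windows assigned to Jun and Ier2 had -1.27 and -1.44, or -0.59 and -0.97 without none replicate 2.

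Genes of the YAP and TEAD pathway had 52 windows and a median of -0.02. Of these, 12 (23.1%) were above and 10 (19.2%) below in both libraries, beside 15.2% and 17.0% of all windows. Ccn2, the gene of a matricellular growth factor and a standard target of YAP, had 3 windows 5556 to 6336 bp before its start. The middle one, at chr10:24589406-24589530, had 232 and 70.9 normalised tags with TNFa+BMP4 and 31.5 and 11.5 without treatment. The fold changes of the 3 were 2.41, 2.62 and 2.21, and 1.87, 1.96 and 1.83 without none replicate 2. Vgll4, which encodes a TEAD cofactor that opposes YAP, had intronic windows at -1.75 and -1.60, or -0.95 and -1.30 without none replicate 2. Wnt pathway genes had 48 windows, 7 (14.6%) above and 14 (29.2%) below, beside the same shares of all windows, with a median of -0.11. Their lowest was in an intron of Tcf7l1, a repressor of Wnt targets, with 42 and 23.2 tags in treated libraries and 93.5 and 215 in untreated ones. Lrp5, the Wnt co-receptor gene of bone mass, had -1.58, or -1.05 without none replicate 2, and a window 227782 bp from Fzd1, a Wnt receptor gene, had 2.15. A window 123457 bp from Wnt11, a Wnt ligand gene, had 1.54 in overlapping groups, or -0.14 without TNFa+BMP4 replicate 1 and none replicate 2.

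Interferon regulators and antigen presentation genes had 34 windows, with a median of 0.27 (0.34 without none replicate 2). Of these, 12 (35.3%) were above and 5 (14.7%) below in both libraries, beside 15.2% and 17.0% of all windows. An intronic window of Socs1, a feedback inhibitor of cytokine receptors, had 167 and 96.5 normalised tags with TNFa+BMP4 and 65.5 and 22.2 without treatment, a fold change of 1.67 that was 0.93 without none replicate 2. Irf7 and Irf2, an activator and a repressor of interferon genes, had windows at 1.32 and -1.41, or 0.66 and -1.03 without that library. An intergenic window 27705 bp from Socs3, another such inhibitor gene, overlapped between groups, with 1.23, or -0.18 without TNFa+BMP4 replicate 1 and none replicate 2. Growth factor and receptor genes had 43 windows, 13 (30.2%) above and 8 (18.6%) below, beside the same shares of all windows. The highest was 11259 bp before Pdgfb, the gene of the PDGF B chain, at chr15:80026174-80026298, with 229 and 185 tags in treated libraries and 28.8 and 32.9 in untreated ones. Both none libraries were alike there, and the fold change of 2.66 ± 0.71 was 2.74 without none replicate 2. Windows near Fgf7, Igfbp3 and Fgfr1 had 1.48, -1.28 and -1.47, or 0.75, -1.01 and -0.86 without none replicate 2. Matrix remodelling genes had 56 windows and a median of 0.00, from -1.73 to 1.62, the highest in the promoter of Timp1, a metalloproteinase inhibitor gene.

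Of the markers of other cell types, chondrocyte genes had 13 windows, 3 (23.1%) above and 3 (23.1%) below, beside 15.2% and 17.0% of all windows. Intronic windows assigned to Sox5 and Sox6, which work with SOX9 in cartilage, had 1.87 and 1.34, or 0.93 and 1.37 without none replicate 2. An exonic window of Sox6 had -1.60 and a window near Comp, a cartilage matrix gene, -1.50, or -1.06 and -0.89 without that library. The 8 endothelial and muscle windows had a median of 0.29. The highest was in an intron of Pecam1, which is otherwise an endothelial adhesion gene, with 180 and 96.5 normalised tags with TNFa+BMP4 and 28 and 42.9 without treatment. The 4 adipocyte windows had a median of -0.06 and the 2 haematopoietic windows -0.03. Housekeeping genes, taken as controls, had 52 windows, 35 with a fold change above 0, beside 48.8% of all windows, and a median of 0.17. Of the 52, 8 (15.4%) were above and 2 (3.85%) below in both libraries, beside 15.2% and 17.0% of all windows. Their extreme was the Polr2a promoter, with 594 and 309 tags with TNFa+BMP4 and 282 and 39.8 without treatment. Its fold change of 1.98 was 0.60 without none replicate 2, so a housekeeping promoter had a fold change within the range of those at NF-kB and BMP genes.

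The groups with a single factor were set beside the combination in a fit of all 8 libraries, over the 14548 windows tested above that are present in all 4 lists. The comparisons share the none libraries, and only the TNFa libraries have p65 in their titles, with no reason stated. At the Lif window 42408 bp downstream the log2 fold change over none was 2.40 with TNFa+BMP4, 1.99 with TNFa and 0.52 with BMP4. For the Pdgfb window the values were 2.68, 2.46 and -0.04, for Nfkb2 (-17 bp) 2.08, 1.87 and 0.23, and for Ccl2 (-2447 bp) 1.66, 2.24 and -0.17, each in the order combination, TNFa, BMP4. The 2 Id3 windows given above had another order. At -8650 bp the combination had 1.85, TNFa -0.09 and BMP4 1.85, and at the promoter they had 1.00, -0.83 and 1.34. Other Id windows differed from these: at Id3 -20291 bp the values were 0.65, 0.97 and -0.21, at Id3 -26532 bp -1.06, -1.14 and -0.33, and at Id1 -9376 bp 1.73, 0.71 and 0.22. At Ccn2 (-5974 bp) the combination had 2.64, above TNFa with 1.31 and BMP4 with 1.10. Medians over the cytokine list were 0.69, 0.46 and 0.07, and over the BMP-SMAD list 0.11, -0.13 and 0.32. The SE of these window fold changes ran from 0.51 at the Id3 promoter to 1.04 at Ccn2. It was 0.86 at Id3 -8650 bp and 0.92 at Nfkb2. None replicate 2 is part of every comparison here, and the fit of 8 libraries was not repeated without it. Differences between treatments were not tested here.

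**Figure D5:**
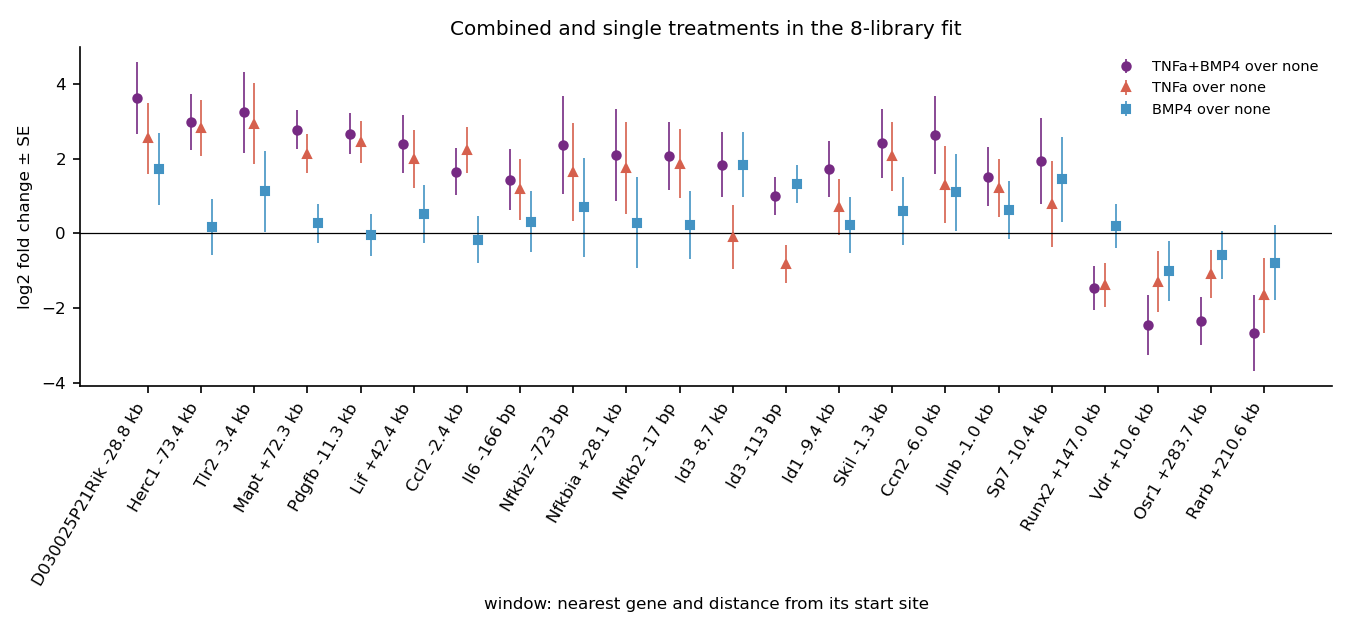
Log2 fold change over none (points, with SE as bars) of TNFa+BMP4, TNFa and BMP4 in the fit of 8 libraries, for windows named in the text that are present in all 4 lists. At Pdgfb, Lif, Ccl2 and Nfkb2 the points of TNFa+BMP4 and TNFa lie together above that of BMP4, and at the 2 Id3 windows those of TNFa+BMP4 and BMP4 lie above that of TNFa.

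By position, the 6993 promoter windows had a median log2 fold change of 0.00. Of these, 13.0% were above and 10.6% below in both libraries, beside 15.2% and 17.0% of all windows. The 5003 intronic and 4997 intergenic windows had medians of -0.04 and -0.06, with 16.4% and 16.8% above and 21.2% and 21.9% below. Beyond 100 kb from any start the 1272 windows had 13.6% above and 24.7% below. The 657 windows annotated as CpG islands had a median of 0.28, with 23.6% above and 6.54% below, but TNFa+BMP4 replicate 2 minus none replicate 1 had a median of 0.04 there.

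Motifs were counted in the 4153 tested windows centred in the 250 bases before a RefSeq start, of which 11.1% were below in both libraries. The 59 windows in promoters with the NF-kB motif had 13.6% above and 15.3% below and a median of -0.17, against -0.07 without the motif. For the AP-1 motif, 174 windows had 12.1% above and 16.1% below, and for the GC-rich SMAD element 796 windows had 9.42% above and 9.42% below. In promoters without the NF-kB motif 10.9% were above, and the shares were, without the AP-1 motif 10.9% and 10.8%, and without the SMAD element 11.3% and 11.4%. Windows away from promoters were not searched.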

How the data were processed

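ATAC-seq tags were measured in 2 libraries per treatment of MC3T3-E1 cells. The submitters' processing notes name HOMER 4.11, deepTools 3.5.1, Picard 2.25.1, Bowtie2 2.5.1 and Trimmomatic 0.39, with build mm10. A shift of reads for the transposase is not stated there. The authors found peaks in the pooled replicates of each group with HOMER, setting them against 2 libraries of sonicated DNA, per the file headers. The deposited values per library, although headed tag counts, are regularised log2 values fitted within each list. The authors' deposited peak score, log2 fold change and p-value compare a group with sonicated DNA and entered no test here.

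The regularised values were inverted to tag counts, and 99.9968% of values in the TNFa+BMP4 list and 99.94% in the none list came out within 0.1 of a whole number, against 19.0% and 16.6% with constants 5% off. No per-sample column was left unmapped. Windows with at least 10 tags in at least 2 libraries were tested (17789 of 18081, 292 left out) with limma 3.58.1 in R 4.3.3 on log2(TMM-normalised count + 2), two-sided with Benjamini-Hochberg adjustment, and the code was tested on simulated data. Named windows were the 10 of smallest p in each direction, the highest and lowest statistics of each of 23 gene lists, and the windows of anchor genes; of the 199 windows under this rule, 115 are described individually and 84 are not, and that choice was made with their values, and their change without single libraries, known. The members and lists were chosen with earlier results of these data known. Alternatives covered scaling, pseudocount, filters, pairing distance, weights, a replicate block and leaving out each library.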

Additional observations from a re-analysis of the deposited data

How the results depend on the processing

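The count of windows past the adjusted threshold in limma was 0 in the main analysis, 1 with a mean of at least 30 tags, 5 with the replicate block, and between 0 and 462 when 1 library was left out. The count higher at an unadjusted p under 0.05 was 630, against 170 in the fit of all 8 libraries, 219 with identical coordinates and 65 to 1894 with 1 library left out. The count lower was 465, against 198, 164 and 92 to 1678. The cause was not tested. The replicate numbers do not pair the libraries: there are 2 pairs in 1 labelled batch, and deviations of same-numbered libraries from their group means correlated at 0.0741. With the block 894 windows were higher and 640 lower at an unadjusted p under 0.05, and those past the adjusted threshold were nearest to Dlg4, D030025P21Rik, Tlr2, 1700028E10Rik and Tmem126a. Leaving out a library leaves 1 in its group, which is assumed to vary like the other group. Of list medians under the alternatives, 375 moved by less than the SD between libraries of a group and 60 by more. TNFa+BMP4 replicate 2 against none replicate 1 alone was added after seeing the data and has no test. Of the 199 windows under the naming rule, 64 changed sign under at least 1 alternative, 24 of them without none replicate 2, 23 without TNFa+BMP4 replicate 1 and 47 without both. The windows described individually are the steadier ones: 8 of 115 changed sign, against 56 of the 84 not described, so they do not stand for the whole set. With libraries left out, values at those 8 ran from -0.14 to 2.02 (Cflar), -0.65 to 3.30 (Traf5), -2.48 to 0.11 (Nog), -0.18 to 2.16 (Socs3), -0.19 to 3.16 (Bbc3), -0.01 to 1.83 (Id3, -9068 bp), -0.49 to 2.18 (Bmpr2) and -0.14 to 2.45 (Wnt11). Nog had 0.06 without both libraries, and Bmpr2 had -0.11 without TNFa+BMP4 replicate 1. Values of described windows that passed the adjusted threshold under an alternative came mostly from leaving out none replicate 1. That leaves none replicate 2, which stood farthest apart, as the only untreated library. A GC correction, alone or with the block, was not run because no genome of the build was used here. With 2 libraries per group and a median SE of 0.69, differences of the size seen at most windows were not detectable.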

Other observations

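Some other genes had several windows whose groups did not overlap. They were chosen after their values were seen and have no test. Both TNFa+BMP4 libraries were above both none libraries in 5 of 7 windows of Fam129b and 5 of 8 of Synj2, which encodes a phosphoinositide phosphatase, beside 15.2% of all windows. Both were below in 6 of 11 windows of Ackr3, which encodes a chemokine scavenger receptor, 5 of 7 of Dhrs3, which encodes a retinal reductase, 5 of 12 of Lpin1, a phosphatidate phosphatase gene, and 5 of 6 of Nfia, a transcription factor gene, beside 17.0% of all windows. Median log2 fold changes were 0.781 for Fam129b and 0.852 for Synj2, against -0.647 for Ackr3, -0.658 for Dhrs3, -0.893 for Lpin1 and -0.627 for Nfia. Windows of 1 gene share their libraries and are not independent.

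Windows without a partner in the other list had fewer tags than paired ones. Their median was 19.5 tags in the TNFa+BMP4 list, where paired windows had 31.5, and 26.5 in the none list, where paired windows had 53.5. Of the chondrocyte marker windows, 31.6% of 19 in the TNFa+BMP4 list and 56.7% of 30 in the none list had no partner.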
